A study of Arabidopsis with 12 samples.

Results

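The 10 genes described here encode stress-responsive transcription factors of the plant NAC family in Arabidopsis thaliana. They were taken by name: ATAF1 (AT1G01720), ATAF2 (AT5G08790), NAC032 (AT1G77450) and NAC102 (AT5G63790) of the ATAF subgroup, NAC019 (AT1G52890), NAC055 (AT3G15500) and NAC072 (AT4G27410), also called RD26, the membrane-anchored NAC013 (AT1G32870) and NAC017 (AT1G34190), and NAC042 (AT2G43000), also called JUB1. All 10 were found among the 27655 loci of the deposited table, where 100 loci belong to the NAC family by their RefSeq names. All 10 were also among the 19667 loci tested, which needed 1 TPM or more in 3 libraries or more.

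The study sequenced total RNA of seedlings of 2 mutants in 12 libraries, 3 in each of 4 groups. All groups carry the flu mutation, which removes a brake on tetrapyrrole synthesis, so that a photosensitizing precursor of chlorophyll builds up in the dark and singlet oxygen is released in the plastid on illumination. The double mutant flu/toc33-1, called flu toc33 here, is in addition mutant in TOC33, which encodes a receptor of the protein import machinery at the chloroplast surface. Its light response was compared with that of flu because the series' title places TOC33 in signalling from chloroplast singlet oxygen to the nucleus. Seedlings grew in continuous light at 22°C to an age of 7 d by the sample titles (6 d by the series' design text). They were then placed in the dark for 4 h and harvested (flu dark and flu toc33 dark), or given 1 h of light after it (flu light and flu toc33 light). No wild type was analysed here and no group stayed dark for the last hour, so singlet oxygen, light itself and the later harvest cannot be told apart in any difference between lit and dark groups.

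NAC factors bind DNA through a conserved N-terminal domain, and the C-terminal part of the protein activates or represses transcription. The members of the ATAF subgroup and the NAC019, NAC055 and NAC072 group are known as genes induced by drought, salt, wounding, abscisic acid or jasmonate, and several of them promote leaf senescence. NAC013 and NAC017 are made as inactive proteins anchored in the endoplasmic reticulum, are released by cleavage, and then drive genes that answer to mitochondrial dysfunction. NAC042 is induced by hydrogen peroxide and delays senescence.

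Values are TPM, the share of a transcript among all transcripts of its library corrected for length, summed over the transcript models of each locus. TPM holds no read depth, so the counting error of a value is unknown. The 12 libraries had 18533 to 19023 loci at 1 TPM or more, and libraries of the same group correlated across loci at r = 0.992 to 0.996. The lowest values were those of flu dark replicate 3. Its median absolute difference in log2(TPM + 1) from flu dark replicates 1 and 2 was 0.155 and 0.152, against 0.0666 between those. TOC33 (AT1G02280) had mean levels of 48.7 TPM (dark) and 3.97 TPM (light) in flu toc33, against 203 and 172 TPM in flu. FLU (AT3G14110) was transcribed in all groups, at means of 169 to 215 TPM. Residual TOC33 transcript was thus higher in the dark libraries of the double mutant than in the lit ones, and the part of this in the comparisons below was not tested. The comparison of the lit groups uses no dark library. The tissue is labelled leaf, but the titles say seedlings: the 5 mesophyll markers summed to 26050 to 48156 TPM per library, and the 8 root markers to 797 to 1584 TPM. Nearly all of the root sum was 1 gene, PYK10, with group means of 816 to 1543 TPM. Libraries of a group are labelled only as replicates, so the spread behind the p-values is that between these samples and may be technical.

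NAC102 was the most abundant member in all 4 groups by group mean, and NAC042 the least abundant. In flu the 10 genes summed to 282 ± 6.37 TPM (SD, n = 3) in the dark and 1745 ± 30.9 TPM in the light. In flu toc33 they summed to 266 ± 6.19 and 396 ± 5.57 TPM. The ATAF subgroup made up 68.0% of that sum in flu dark, 87.9% in flu light, 60.7% in flu toc33 dark and 67.1% in flu toc33 light. In bulk RNA of whole samples, a change in the number of cells that express a gene and a change in the transcript per cell cannot be told apart.

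**Figure D1:**
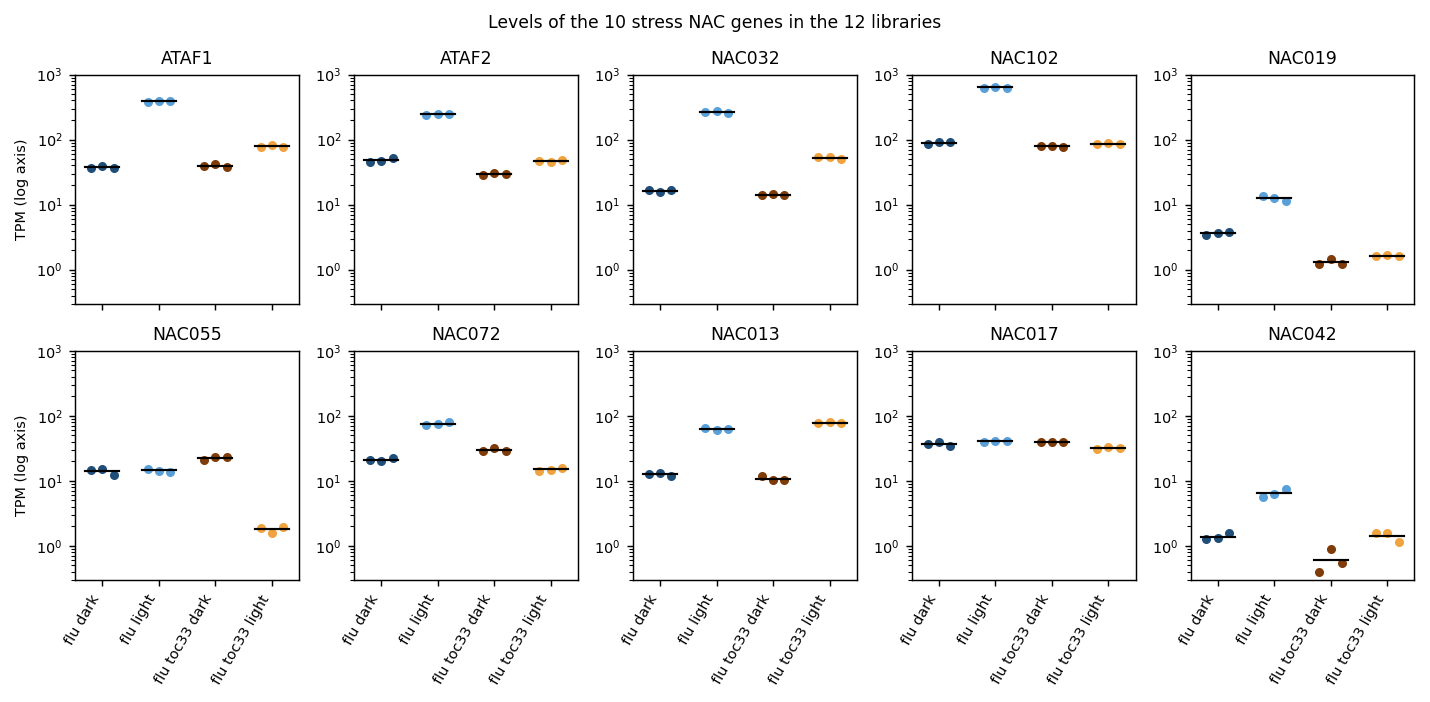
TPM of each of the 10 NAC genes on a log axis, with 1 point per library and a bar at the mean of the 3 libraries of each group. The 4 ATAF subgroup genes are highest in flu light, NAC055 is lowest in flu toc33 light at 1.80 TPM, and NAC013 is high in both lit groups.

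The order of the members changed between groups. In flu dark, NAC102 was followed by ATAF2, then by NAC017 and ATAF1, whose libraries overlapped, and by NAC072, NAC032, NAC055 and NAC013, the last pair overlapping, with NAC019 and NAC042 lowest. In flu light the order was NAC102, ATAF1, NAC032, ATAF2, NAC072, NAC013 and NAC017, followed by NAC055 and NAC019, which overlapped, and NAC042. Of all loci in the table, 2024 had a higher group mean than NAC102 in flu dark and 175 did in flu light. In flu toc33 dark the order was NAC102, ATAF1 and NAC017 (overlapping), NAC072 and ATAF2 (overlapping), NAC055, NAC032, NAC013, NAC019 and NAC042. In flu toc33 light ATAF1 and NAC013 overlapped behind NAC102, NAC032, ATAF2, NAC017 and NAC072 came next, and NAC055 overlapped with NAC019 above NAC042.

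Light in flu was the first comparison. Of the 10 genes, 8 rose and none fell: all 4 ATAF subgroup genes, NAC019, NAC072, NAC013 and NAC042. Over all loci tested 61.6% were called, 28.2% higher and 33.4% lower, at an adjusted p under 0.05 from limma (Benjamini-Hochberg over all loci tested). The 8 genes each rose at least 2-fold on the log2(TPM + 1) scale, a rule added after the data were seen that 12.8% of all loci passed in either direction. The median difference was a log2 of 2.00 over the 10 genes and -0.0375 over all loci. Lit and dark libraries did not overlap for the same 8 genes and for 63.6% of all loci tested. With a pseudocount of 5 TPM, 7 of the 10 passed 2-fold, NAC042 being at 0.85. Quantile normalization moved the split of calls over all loci from 5547 higher and 6571 lower to 4691 higher and 8660 lower.

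The same hour of light in flu toc33 gave a different set of directions. All 10 genes were called, 7 higher and 3 lower, against 71.0% of all loci (40.4% higher and 30.6% lower). At least 2-fold changes were called for 3 of the 10, NAC032 and NAC013 higher and NAC055 lower, and for 16.0% of all loci. The median difference was 0.40 over the 10 genes and 0.0718 over all loci. Lit and dark libraries did not overlap for any of the 10, nor for 77.5% of all loci tested. Most of these differences were therefore called but small, and a share of 10 of 10 stands beside a background in which most loci were called. With a pseudocount of 0.1 TPM, NAC042 also passed 2-fold, at 1.15. Quantile normalization turned the split over all loci from 7939 higher and 6025 lower to 6954 higher and 7177 lower.

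Each treatment also allowed a comparison of the genotypes. In the dark 8 of the 10 genes were called, 2 higher and 6 lower in flu toc33, against 41.4% of all loci (20.9% higher and 20.5% lower). Only NAC019 among the 10 passed 2-fold there, as did 2.54% of all loci, and the median difference was -0.20 over the 10 genes and 0.0120 over all loci. That count of 1 depends on the pseudocount: with 5 TPM it was 0, NAC019 being at -0.45, and with 0.1 TPM it was 2, with NAC042 at -1.12. In the light all 10 were called, 9 lower and NAC013 higher in flu toc33, against 66.8% of all loci (39.0% higher and 27.9% lower). At least 2-fold lower levels were called for 8 of the 10 (7 with a pseudocount of 5 TPM), and 11.4% of all loci passed that rule in either direction. The median difference in the light was -2.30 over the 10 genes and 0.0766 over all loci. Median-ratio scaling turned the split over all loci in the light from 7662 higher and 5478 lower to 6018 higher and 6919 lower, and kept the direction of all 10 genes. Libraries of the genotypes did not overlap for 8 of the 10 genes in the dark and for all 10 in the light, against 49.5% and 74.0% of all loci tested. Marker sums also differed between the lit groups, flu first: 39501 to 42168 against 26050 to 27097 TPM for mesophyll, 797 to 841 against 1347 to 1380 TPM for root (5 of the 8 markers under 1 TPM in flu light), 464 to 468 against 790 to 837 TPM for epidermis, 109 to 113 against 81.6 to 86.6 TPM for 4 vascular markers, and 20.4 to 26.8 against 214 to 220 TPM for 9 seed storage markers (5 of them under 1 TPM in flu light). The 4 guard cell markers summed to 46.0 to 50.0 and 44.8 to 46.7 TPM. Nearly all of the root sums was PYK10, at means of 816 TPM in flu light and 1347 TPM in flu toc33 light. No marker was at 0 in all libraries of a group, and the part of these markers in the differences was not tested.

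The light responses themselves differed between the genotypes for all 10 genes. The interaction, the difference in flu toc33 minus that in flu, was negative for 9 of the 10 and positive for NAC013. Over all loci 56.7% were called, 31.6% higher and 25.1% lower, and 11.9% passed 2-fold against 8 of the 10 genes, all of them lower (7 with a pseudocount of 0.1 TPM and 6 with one of 5 TPM). The median interaction was -1.89 over the 10 genes and 0.0654 over all loci. Median-ratio scaling turned the split over all loci from 6220 higher and 4931 lower to 4915 higher and 6186 lower. The comparison of the lit groups and the interaction both use the flu light libraries of the first comparison, so these counts are not independent of each other.

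**Figure D2:**
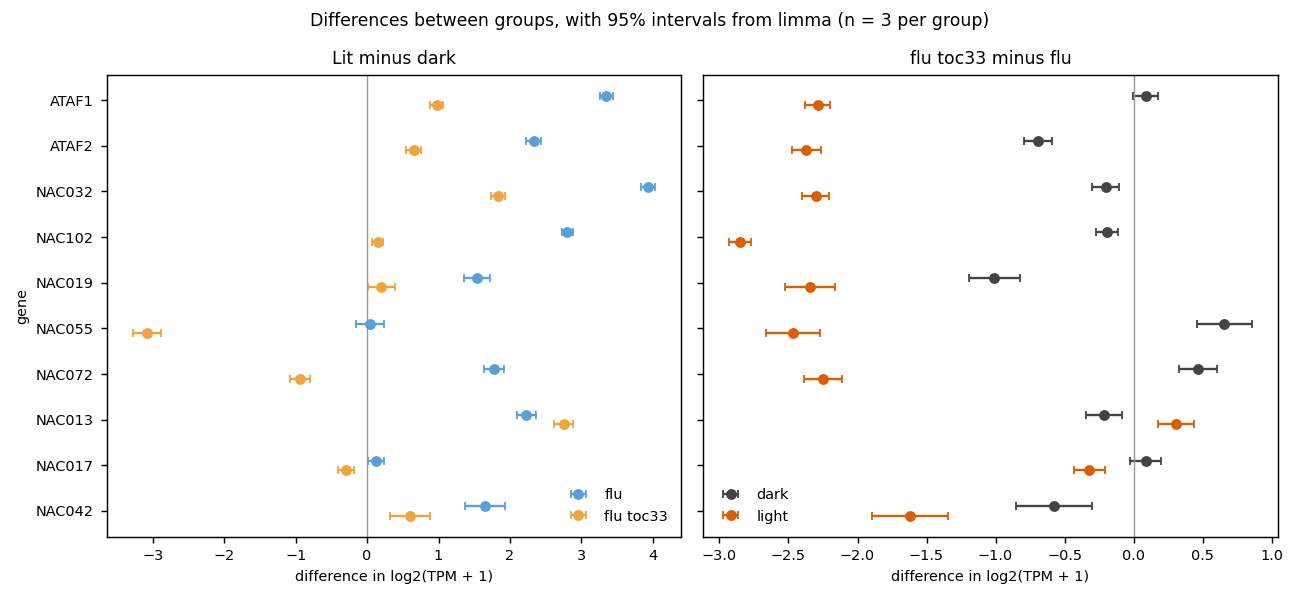
Differences in log2(TPM + 1) of the 10 genes with 95% intervals from limma: lit minus dark in each genotype (left) and flu toc33 minus flu in each treatment (right). In the light 9 genes lie below 0, 8 of them between -2.85 and -1.62, while in the dark the differences lie between -1.01 and 0.66.

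The ATAF subgroup carried the largest rises in flu. ATAF1, a factor induced by drought and abscisic acid that promotes chlorophyll loss, had 36.2, 38.8 and 36.8 TPM in the dark libraries of flu, replicates 1 to 3, and 385, 395 and 387 TPM in the lit ones. In flu toc33 it had 39.4, 41.4 and 38.2 TPM in the dark and 76.7, 82.2 and 77.8 TPM in the light. The dark libraries of the genotypes overlapped, and every lit library of flu toc33 lay above the dark libraries and far below the lit libraries of flu. The ratio of means was 10.4 in flu and 1.99 in flu toc33. On the log2(TPM + 1) scale the rise was 3.35 ± 0.0421 (SE) in flu (limma, adjusted p = 4.74e-16) and 0.97 ± 0.0421 in flu toc33 (adjusted p = 7.77e-11), and the interaction was -2.38 ± 0.0596 (adjusted p = 2.22e-12).

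NAC032, a factor known to restrain anthocyanin synthesis under stress, had the largest rise of the 10 in flu. The flu libraries had 16.7, 15.9 and 16.6 TPM in the dark and 262, 273 and 260 TPM in the light. The double mutant had 14.0, 14.6 and 13.8 TPM in the dark and 54.8, 54.0 and 49.8 TPM in the light. All lit libraries lay above all dark ones, with the 3 flu light libraries highest. The ratio of means was 16.2 in flu and 3.75 in flu toc33. The log2 rise of 3.93 ± 0.0462 (SE) in flu stood in place 115 from the top of all loci tested (limma, adjusted p = 2.77e-16), and the rise in flu toc33 was 1.83 (adjusted p = 2.24e-13). NAC032 was the one ATAF subgroup gene that still rose more than 2-fold on this scale in the double mutant.

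NAC102, a factor of chloroplast stress and detoxification responses, stood at 85.5, 90.9 and 92.9 TPM in the dark and 619, 649 and 629 TPM in the light in flu. In flu toc33 its 6 libraries lay between 76.7 and 87.7 TPM: 78.9, 79.2 and 76.7 TPM in the dark, 86.3, 87.7 and 86.4 TPM in the light. The lit libraries of the double mutant lay within the range of the dark libraries of flu. The ratio of means between light and dark was 7.05 in flu and 1.11 in flu toc33. The small rise in flu toc33, a log2 of 0.15 ± 0.0361 (SE; limma, adjusted p = 0.00233), was not called under median-ratio scaling (0.0751, adjusted p = 0.182; over its 15 alternatives the adjusted p ran from 0.000925 to 0.182). The interaction was -2.66 ± 0.0510 (adjusted p = 2.75e-13), and the level in the light was 7.29-fold lower in flu toc33 than in flu.

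ATAF2, a repressor of pathogenesis-related genes that is induced by wounding, stood at 45.6, 47.6 and 51.6 TPM in the dark and 241, 251 and 247 TPM in the light in flu. For flu toc33 the values were 28.1, 30.2 and 30.1 TPM in the dark and 47.5, 45.4 and 47.8 TPM in the light. The lit libraries of the double mutant overlapped with the dark libraries of flu. ATAF2 was the member of the subgroup with the largest difference between the dark groups, a log2 of -0.69 ± 0.0480 (SE; limma, adjusted p = 1.04e-07). Its rise was a log2 of 2.33 in flu (adjusted p = 4.13e-14) and 0.65 in flu toc33 (adjusted p = 2.46e-08), with ratios of means of 5.11 and 1.59.

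In the lit groups the 4 ATAF subgroup genes differed between genotypes by similar amounts. The flu light level was 4.93-fold higher for ATAF1, 5.26-fold for ATAF2, 5.01-fold for NAC032 and 7.29-fold for NAC102, by the ratio of means. The log2 differences ran from -2.29 for ATAF1 to -2.85 for NAC102. In the dark ATAF1 was not called (log2 0.09, adjusted p = 0.112), and NAC032 and NAC102 differed, flu toc33 minus flu, by -0.20 and -0.19 (limma, adjusted p = 0.00308 and 0.000703). The dark differences of these 3 genes were therefore small beside those in the light.

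NAC019, NAC055 and NAC072 are close relatives that bind the promoter of the drought gene ERD1 and act downstream of jasmonate and abscisic acid, and they parted in both genotypes. NAC055 had 14.8, 15.4 and 12.1 TPM in the dark libraries of flu and 15.4, 14.4 and 13.5 TPM in the lit ones. These libraries overlapped, and the difference of 0.04 on the log2 scale was not called (limma, adjusted p = 0.725), with an interval of -0.157 to 0.237. In flu toc33 the gene had 21.2, 23.5 and 23.3 TPM in the dark and 1.91, 1.55 and 1.93 TPM in the light. NAC055 thus stood highest of its 4 groups in flu toc33 dark and fell 12.6-fold by the ratio of means within the hour. The fall was a log2 of -3.08 ± 0.0914 (SE; limma, adjusted p = 1.27e-12), place 105 from the lowest of the loci tested. The interaction of -3.12 ± 0.129 (adjusted p = 2.17e-10) was the lowest of all 70 NAC family loci tested. With a pseudocount of 5 TPM it was -2.06 and only the fifth lowest, with NAC102 lowest at -2.61, the fall in flu toc33 was -2.02, and the difference in the light was -1.52 in place of -2.47.

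NAC072 moved in opposite directions in the 2 mutants. In flu it went from 21.1, 20.0 and 22.6 TPM in the dark to 71.0, 74.7 and 79.3 TPM in the light, a rise with a log2 of 1.77 ± 0.0640 (SE; limma, adjusted p = 1.51e-11). In flu toc33 it went from 28.5, 32.1 and 28.6 TPM to 14.4, 14.8 and 15.8 TPM, a fall with a log2 of -0.94 (adjusted p = 1.10e-08). No library of any group overlapped with another group's. Like NAC055, the gene was higher in flu toc33 than in flu in the dark, by a log2 of 0.46 (adjusted p = 6.19e-05), and lower in the light, by -2.25 (adjusted p = 1.93e-12). The interaction was -2.71 ± 0.0905 (adjusted p = 2.85e-11).

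NAC019 was the least abundant of these 3 genes in all 4 groups by group mean. Its flu values were 3.46, 3.67 and 3.79 TPM in the dark and 13.6, 12.6 and 11.2 TPM in the light. Its flu toc33 values were 1.22, 1.47 and 1.22 TPM in the dark and 1.63, 1.67 and 1.64 TPM in the light. It was low in all 6 double mutant libraries, already in the dark, where the difference was a log2 of -1.01 ± 0.0848 (SE; limma, adjusted p = 6.80e-07), the lowest of the NAC family loci tested (with a pseudocount of 5 TPM it was in place 4, at -0.45, behind ATAF2 at -0.63 among others). The rise in flu was a log2 of 1.54 (adjusted p = 1.54e-09). The rise in flu toc33, a log2 of 0.20 (adjusted p = 0.0483), was called under only 4 of its 15 alternatives, with adjusted p from 0.0209 to 0.632. It was lost on leaving out flu toc33 dark replicate 1 or 3 or any of the 3 flu toc33 light replicates (adjusted p = 0.0816 to 0.129). At these low levels the pseudocount sets much of the log2 value: the dark difference ran from -0.45 with a pseudocount of 5 TPM to -1.41 with one of 0.1 TPM. With 5 TPM the rise in flu was 1.02 and the difference in the light -1.39 in place of -2.35.

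NAC013, the first of the membrane-anchored pair, was the one member with a positive interaction. It had 12.9, 13.2 and 11.9 TPM in the dark libraries of flu and 65.0, 60.3 and 63.7 TPM in the lit ones. In the double mutant it had 11.8, 10.1 and 10.3 TPM in the dark and 76.8, 80.1 and 77.3 TPM in the light. The lit libraries of the double mutant all lay above those of flu, which holds for no other member. The rise was a log2 of 2.23 ± 0.0607 (SE; limma, adjusted p = 7.21e-13) in flu and 2.75 (adjusted p = 5.88e-14) in flu toc33, with ratios of means of 4.99 and 7.26. The interaction of 0.52 ± 0.0858 (adjusted p = 0.000156) was positive, and the level in the light was 1.24-fold higher in flu toc33 (log2 0.30, adjusted p = 0.000547). The lower dark level in flu toc33, a log2 of -0.22 (adjusted p = 0.0112), was not called in a fit of the compared groups alone (adjusted p = 0.0788) or without flu toc33 dark replicate 2 (-0.18, adjusted p = 0.0522).

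NAC017, whose product is controlled mainly by its release from the membrane, had its highest group mean in flu light and its lowest in flu toc33 light, 1.26-fold apart. This was the smallest such ratio of the 10 genes. In flu the libraries had 37.2, 40.0 and 34.6 TPM in the dark and 39.1, 41.2 and 41.2 TPM in the light. In flu toc33 they had 39.9, 39.8 and 39.2 TPM, and 31.1, 33.1 and 32.4 TPM after light. The flu toc33 light libraries were the lowest of the 12, and the other 3 groups overlapped in part. The difference between light and dark in flu was 0.12 on the log2 scale (limma, adjusted p = 0.0632). It was called under median-ratio scaling (0.15, adjusted p = 0.00690) and without flu dark replicate 2 (0.17, adjusted p = 0.0114). Between the dark groups the difference of 0.09 was not called (adjusted p = 0.187), and it was without flu dark replicate 2 (0.14, adjusted p = 0.0425). In flu toc33 light and dark differed by -0.29 (adjusted p = 0.000178), and the interaction was -0.41 ± 0.0734 (adjusted p = 0.000313).

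NAC042, the regulator of longevity, was near the filter in most libraries. It had 1.26, 1.32 and 1.55 TPM in the dark and 5.71, 6.35 and 7.38 TPM in the light in flu. It had 0.402, 0.882 and 0.538 TPM in the dark and 1.58, 1.56 and 1.14 TPM in the light in flu toc33. The 3 flu light libraries stood above the other 9. The rise was a log2 of 1.65 ± 0.128 (SE; limma, adjusted p = 6.49e-08) in flu and 0.60 (adjusted p = 0.000800) in flu toc33, and the interaction was -1.05 ± 0.181 (adjusted p = 0.000233). With a pseudocount of 5 TPM the rise was 0.85 in flu and 0.20 in flu toc33 and the interaction -0.65, and with 0.1 TPM the rises were 2.15 and 1.15. The difference between genotypes was -0.57 in the dark (adjusted p = 0.00265) and -1.62 in the light (adjusted p = 7.78e-08).

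The table lists more than 1 transcript model for 4 of the genes. NAC102 had at least 98.4% of its TPM in model 1 in every library, and NAC042 at least 93.8%. NAC072 was carried mostly by model 2, with a mean share of 72.2% in flu dark, 75.9% in flu light, 71.3% in flu toc33 dark and 52.3% in flu toc33 light. In the double mutant model 2 of NAC072 stood at 21.1 ± 0.781 TPM (SD, n = 3) in the dark and 7.83 ± 0.527 TPM in the light, while model 1 stood at 7.12 ± 2.83 and 6.26 ± 0.779 TPM. The lower NAC072 level of the lit double mutant thus lay mostly in model 2, and the 3 shares in flu toc33 light, from 50.3% to 56.1%, did not overlap with those of any other group. NAC013 was split between model 1 and model 3, with model 1 at a mean of 68.0%, 69.5%, 56.3% and 71.1% of its TPM in the same order of groups. Its shares in flu toc33 dark ran from 42.9% to 71.4% and overlapped with those of all other groups. How reads were divided among models of a locus is an estimate of the authors' quantification, and these shares were not tested.

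**Figure D3:**
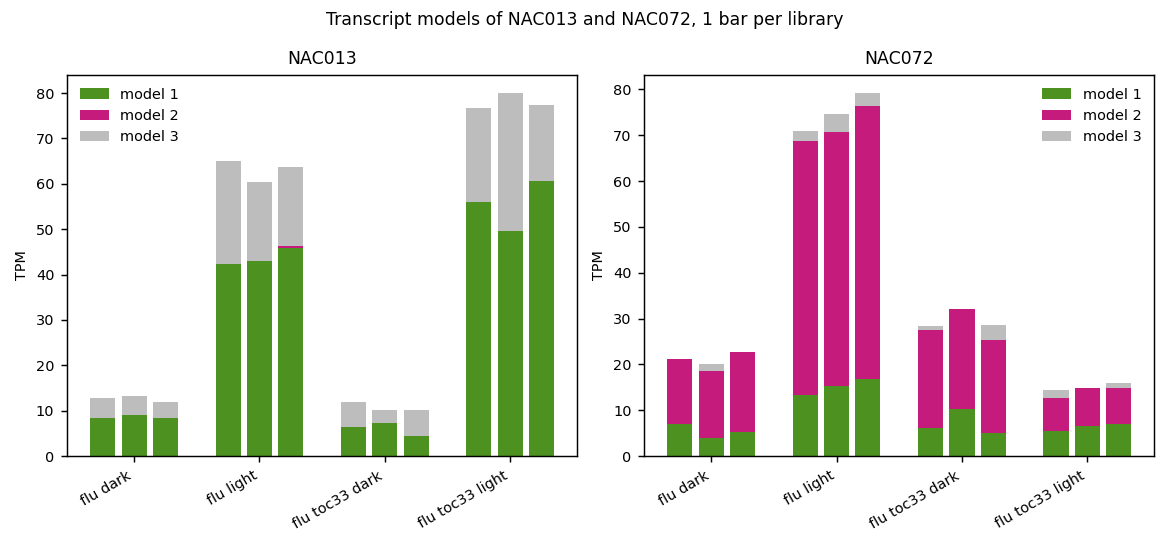
TPM of each transcript model of NAC013 (left) and NAC072 (right), stacked, with 1 bar per library. In NAC072 model 2 falls from 21.1 to 7.83 TPM between flu toc33 dark and light, while model 1 stays between 4.95 and 10.3 TPM in those 6 libraries.

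For each gene the 2 loci with the most similar profile were found by Pearson's r of log2(TPM + 1) over the 12 libraries. These values describe 4 groups of 3 libraries, share the libraries' scaling, and carry no test. ATAF1 was closest to AT4G29780 and CZF1, a CCCH zinc finger gene, both at r = 0.999. ATAF2 was closest to CNI1, a ubiquitin ligase gene also called ATL31, and AT3G54150 (0.999 for both), and NAC032 to AT5G54490 and the zinc finger gene STZ (0.999 for both). NAC102 was closest to ERF6, an ethylene response factor, at 0.998: its group means were 13.7 and 168 TPM in the dark and the light in flu, and 12.1 TPM in both groups of flu toc33. AT1G19040, the other neighbour of NAC102, is listed at 0 in the 3 other groups and had a mean of 20.0 TPM in flu light.

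The remaining members had other neighbours. NAC019 was closest to AT1G26380 (0.996) and the hexose transporter gene MSS1 (0.994). NAC055 was closest to AT4G15260 and AT4G29950 (0.996 and 0.995), which had group means of 11.1 and 24.5 TPM in flu toc33 light and higher ones in the other 3 groups. NAC013 was closest to the clock gene GI, with group means of 1.31, 36.4, 0.903 and 50.3 TPM in flu dark, flu light, flu toc33 dark and flu toc33 light, and to AT3G07090, both at 0.999. NAC042 was closest to the glutathione transferase gene GSTU13 and AT4G18253 (0.989 for both), and NAC072 to AT1G32928 and AT3G10720 (0.986 for both). NAC017 had the loosest neighbours, AT4G26090 and AT1G49050, at 0.968 and 0.967. Among the 10 genes themselves ATAF1 and NAC032 correlated at 0.989 and ATAF2 and NAC042 at 0.988, while NAC055 and NAC013 gave -0.713.

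The rest of the NAC family gave the setting for these values. Of the 90 other loci with a NAC name, 60 were tested. Only 20 of the 90 reached a group mean of 10 TPM or more. At lower levels the pseudocount shrinks log2 differences, so the medians of the 60 and the 10 are not compared at like levels. In flu light against dark 26 of the 60 were higher and 12 lower, with a median log2 of 0.16, against 2.00 for the 10 genes. In flu toc33 32 were higher and 10 lower (median 0.25). In the lit groups 17 of the 60 were higher and 23 lower in flu toc33 (median -0.0644), and in the interaction 16 were higher and 17 lower (median 0.0683). Among all 70 tested, NAC032, ATAF1 and NAC102 took places 1, 2 and 4 by the rise in flu, and NAC055, NAC072, NAC102 and ATAF1 were the 4 lowest by the interaction, with a pseudocount of 1 TPM. The members were chosen with earlier results of these data known, and the list of all family names was drawn up after their values were seen.

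**Figure D4:**
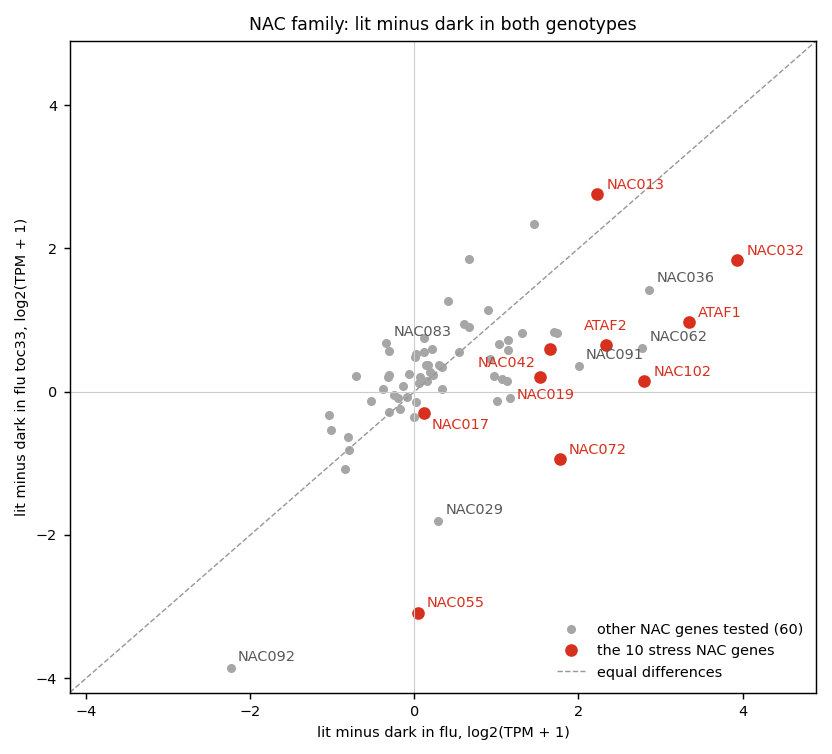
Lit minus dark difference in log2(TPM + 1) in flu (horizontal) and in flu toc33 (vertical) for the 10 stress NAC genes (red) and the 60 other NAC loci tested (grey), with a dashed line where both are equal. NAC013 lies above the line, the other 9 lie below it, and NAC055 is near 0 in flu and at -3.08 in flu toc33.

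The counts of the lists that follow stand beside the shares called over all loci, which were 61.6% for light in flu, 71.0% for light in flu toc33, 41.4% and 66.8% between the genotypes in the dark and in the light, and 56.7% for the interaction. Nothing particular to a list is read from a count. Other membrane-anchored NAC genes included 10 tested of 12 listed. In flu 7 of them rose and 2 fell, and in the interaction 1 was higher and 6 were lower, with medians of 1.06 and -0.46. NAC062, a factor of the unfolded protein response, had group means of 18.5 and 133 TPM in flu (dark, then light) and 17.2 and 26.7 TPM in flu toc33 (interaction -2.17 ± 0.0826, SE; limma, adjusted p = 1.02e-10). NAC091, known as TIP from its binding of a viral coat protein, had 15.2, 64.0, 16.4 and 21.4 TPM in the same order (interaction -1.64, adjusted p = 1.18e-09). NAC069 and NAC053 had interactions of -0.76 and -0.49 (adjusted p = 3.20e-06 and 0.00110). NAC062, NAC091, NAC069 and NAC053 thus had negative interactions, as the 9 members other than NAC013 did. The 1 with a higher interaction was NAC078, at 0.24 (limma, adjusted p = 0.0298). Like NAC013, it rose in both genotypes and was higher in flu toc33 in the light (0.25, adjusted p = 0.00228).

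Senescence and stress NAC genes outside the 10 numbered 13 tested of 14 listed. In flu 7 rose and 4 fell, and in the lit groups 4 were higher and 8 lower in flu toc33. NAC092, the senescence regulator ORE1, fell in both genotypes, from 32.2 ± 2.65 to 6.03 ± 0.611 TPM (SD, n = 3) in flu and from 31.6 ± 0.536 to 1.25 ± 0.222 TPM in flu toc33 (interaction -1.62; limma, adjusted p = 9.90e-08). NAC029, the senescence factor NAP, had 15.0 and 18.5 TPM in flu and fell from 10.9 to 2.40 TPM in flu toc33 (interaction -2.10, adjusted p = 8.14e-09), as NAC055 did. NAC036 rose from 4.18 to 36.7 TPM in flu and from 3.91 to 12.2 TPM in flu toc33 (interaction -1.44, adjusted p = 1.32e-07). NAC083, a repressor of xylem vessel formation also called VNI2, went the other way, from 82.4 to 64.8 TPM in flu and from 93.9 to 151 TPM in flu toc33 (interaction 1.02, adjusted p = 3.49e-09). Of 13 developmental NAC genes only 6 were tested, and 2 had a called interaction: CUC3, a boundary gene, at 0.85 and NAC1, a gene of lateral root formation, at 0.71 (adjusted p = 0.000586 and 0.000500).

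Genes of the mitochondrial dysfunction response are known targets of NAC013 and NAC017, and 9 of 10 listed were tested. In flu toc33 8 rose and 1 fell with light, with a median log2 of 1.97, and in flu 5 rose and 3 fell, with a median of 0.21. In the dark 7 of the 9 were lower and 1 higher in flu toc33 (median -1.11), and in the light 5 were higher and 3 lower (median 0.12). The interaction was higher for 7 and lower for 1, with a median of 1.33. The median interaction over all loci was 0.0654. The interaction was 0.52 for NAC013 and -0.41 for NAC017, and a link of the list to either factor was not tested.

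UGT74E2, a glycosyltransferase gene, went from 18.7 ± 0.900 to 45.1 ± 0.557 TPM (SD, n = 3) in flu and from 1.14 ± 0.0343 to 49.0 ± 0.887 TPM in flu toc33 on illumination. Its interaction was 3.32 ± 0.0704 (SE; limma, adjusted p = 5.66e-13), and the difference lay in the dark level of the double mutant. AOX1A, the alternative oxidase, had 36.8, 164, 11.3 and 134 TPM in the same order (interaction 1.33, adjusted p = 2.66e-10), again with its lowest level in flu toc33 dark. AT2G21640 had 23.2, 26.9, 29.5 and 147 TPM (interaction 2.07, adjusted p = 1.00e-09). AT2G04050, of the MATE transporter family, had 10.5, 6.93, 6.74 and 16.2 TPM (interaction 1.69, adjusted p = 2.06e-08). Of these 4 genes, UGT74E2 and AOX1A thus differed most between the genotypes in the dark, and AT2G21640 in the light. Other listed genes shared these traits. BCS1, AT5G09570 and ABCB4 were also at least 2-fold lower in flu toc33 dark, at -1.23, -1.12 and -1.11. In the light AT2G04050 and ABCB4 were also at least 2-fold higher in flu toc33, at 1.12 and 1.01, and BCS1 was lower, at -1.42. The summed TPM of the 9 seed storage markers ran from 333 to 1574 in the 3 flu toc33 dark libraries and from 68.6 to 73.9 in flu dark, with no marker at 0 in all libraries of a group, and their part in the dark differences was not tested.

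**Figure D5:**
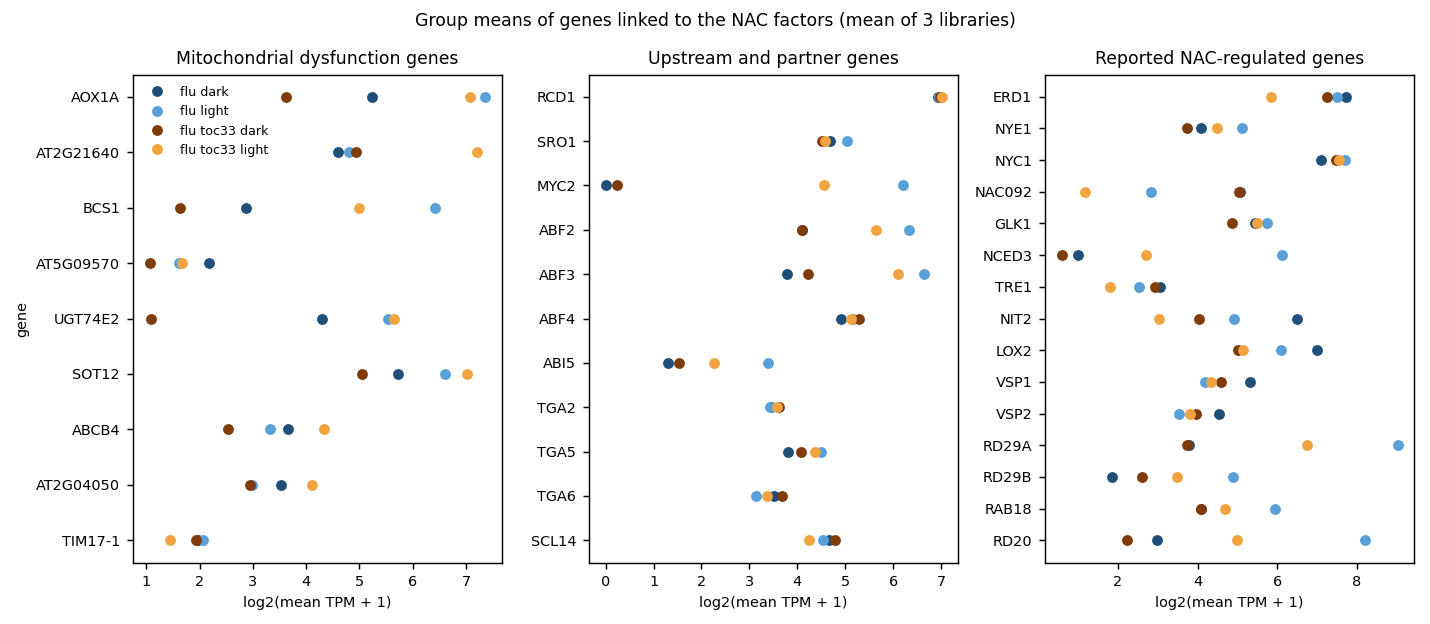
Group means as log2(mean TPM + 1) for the tested mitochondrial dysfunction genes (left), genes that act upstream of or with the NAC factors (middle) and genes reported as regulated by NAC019, NAC055, NAC072 or the ATAF subgroup (right). UGT74E2 and AOX1A are among the genes of the left panel that are lowest in flu toc33 dark, and NCED3, RD29A and RD20 are highest in flu light.

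Genes that act upstream of the NAC factors or bind them were all tested, 11 of 11. With light 7 rose and 1 fell in flu, and 5 rose and 3 fell in flu toc33; the interaction was lower for 8 and higher for none. The 8 of 11 called with light in each genotype are near the shares over all loci. MYC2, the jasmonate factor that activates NAC019, NAC055 and NAC072, was at or near 0 in both dark groups and had means of 72.8 ± 2.10 TPM (SD, n = 3) in flu light and 22.5 ± 3.06 TPM in flu toc33 light, so no fold against the dark is given. ABF3 and ABF2, factors of abscisic acid signalling, rose in both genotypes: ABF3 from 12.7 to 98.8 TPM in flu and from 17.7 to 68.1 TPM in flu toc33, ABF2 from 16.1 to 79.5 TPM and from 16.0 to 49.2 TPM. Their interactions were -0.97 and -0.68 (limma, adjusted p = 2.55e-08 and 7.85e-06). ABI5, a factor of the same family, had an interaction of -1.36 (adjusted p = 5.44e-07), from 1.47 to 9.48 TPM in flu and from 1.89 to 3.79 TPM in flu toc33. The dark values of MYC2, at most 1.15e-05 TPM in flu and 0.548 TPM in flu toc33, were not checked against reads. ABF2, ABF3 and the listed TPM of MYC2 rose in both genotypes, and NAC055 and NAC072 fell in flu toc33. Whether these changes are linked was not tested.

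Genes reported as regulated by NAC019, NAC055, NAC072 or the ATAF subgroup numbered 15 tested of 16 listed. They moved both ways in flu, 8 higher and 7 lower, and in the lit groups 13 were lower and 2 higher in flu toc33, with a median log2 of -1.28. In the dark 9 were already lower and 2 higher in flu toc33 (median -0.39). The interaction was lower for 10 and higher for 5 (median -0.63). ERD1, among the 10, fell in both genotypes, by log2 values of -0.20 in flu and -1.41 in flu toc33. The 4 genes described next had the smallest interaction p of the list and are also among the 10. NCED3, the rate-limiting enzyme of abscisic acid synthesis and a reported target of ATAF1, went from 0.974 ± 0.295 to 68.5 ± 0.484 TPM (SD, n = 3) in flu and from 0.497 ± 0.0737 to 5.53 ± 0.200 TPM in flu toc33. Its interaction was -3.02 ± 0.135 (SE; limma, adjusted p = 4.45e-10). RD29A, a dehydration-responsive gene, went from 12.8 to 520 TPM and from 12.3 to 107 TPM (interaction -2.21, adjusted p = 1.34e-12). RD20, a caleosin gene, went from 6.93 to 296 TPM and from 3.64 to 30.8 TPM (interaction -2.45, adjusted p = 1.14e-10), and RD29B had an interaction of -2.15 (adjusted p = 1.62e-09). NCED3, RD29A, RD20 and RD29B rose in both genotypes and reached their highest level in flu light, as ATAF1 and NAC032 did. They do not stand for the whole list. LOX2, VSP1, VSP2 and NIT2 fell with light in flu and had positive interactions of 1.04, 0.90, 0.88 and 0.57. GLK1, the other gene with a positive called interaction, was at 0.31.

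The 3 genes reported as regulated by NAC042 did not share a direction. DREB2A, which NAC042 activates, rose from 2.08 to 126 TPM in flu and from 2.16 to 26.6 TPM in flu toc33 (interaction -2.23 ± 0.120, SE; limma, adjusted p = 3.00e-09). GA3OX1, a gibberellin synthesis gene that NAC042 represses, had 2.73 and 0.836 TPM in flu and 1.15 and 1.84 TPM in flu toc33 (interaction 1.42, adjusted p = 7.96e-07). DWF4, a brassinosteroid synthesis gene that it also represses, had no called interaction (0.04, adjusted p = 0.752).

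Abscisic acid signalling genes numbered 12 tested of 13 listed, with 7 higher and 5 lower with light in each genotype. In the lit groups 10 of the 12 were lower and 2 higher in flu toc33, with a median of -0.81. The phosphatase gene PP2CA went from 18.7 to 289 TPM in flu and from 19.4 to 67.6 TPM in flu toc33 (interaction -2.14 ± 0.104, SE; limma, adjusted p = 1.06e-09). The related phosphatase genes HAI1, ABI1 and ABI2 had interactions of -1.98, -1.32 and -1.23 (adjusted p = 2.97e-09, 1.11e-10 and 5.19e-07). These 4 phosphatase genes, those of smallest interaction p in the list, rose in both genotypes. They were not called between the genotypes in the dark, where their log2 differences ran from -0.15 to 0.06. HAB1, another listed phosphatase gene, was called higher in flu toc33 in the dark, at 0.40 (limma, adjusted p = 0.00984). HAI2 was not called there (-0.18, adjusted p = 0.216), and HAI3 was not tested.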

How the data were processed

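RNA was sequenced on a DNBSEQ-T7 instrument, per the labels' protocols. The authors deposited 1 table of TPM values for 48359 transcript models in 12 libraries, scaled by the authors to the same sum in each library. The submitters' processing notes name the tools kallisto 0.46.2 and sleuth 0.30.0 and the build TAIR10. For the transcript set, strand setting and depth the sources used here give nothing, so reads of overlapping or antisense genes and of close relatives cannot be separated further.

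Models were summed to 27655 loci. Names came from RefSeq genes of TAIR10.1, which held 27445 of the loci; its coordinates were not used. Groups came from the sample titles. The 19667 loci that reached 1 TPM in 3 or more libraries were analysed as log2(TPM + 1) with limma 3.58.1 in R 4.3.3. The model fitted 4 group means with a trend of the spread, and tests were two-sided with Benjamini-Hochberg adjustment over all 19667 loci at 0.05. The ratio of means is of untransformed TPM. The code was tested on simulated data. Figures were drawn with matplotlib 3.10.9 in Python 3.11.15.

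The members and gene lists were chosen with earlier results of these data known. All 10 members are named, and so are the 2 loci of closest profile for each. Up to 4 genes of smallest interaction p from each list, TOC33 and FLU were also named by rule. ERD1, PYK10 and some further listed genes are named outside this rule. The alternatives tried were a pseudocount of 0.1 or 5 TPM, no filter or a filter at 5 TPM, quantile and median-ratio scaling, a replicate block, a robust spread, the compared groups alone, each library left out, and, added later, a 2-fold rule. Promoter motifs were not analysed here because no promoter sequences were used.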

Additional observations from a re-analysis of the deposited data

Results flagged for a closer look

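The light response differed between the genotypes by the interaction test (limma, adjusted p under 0.05 over all loci) for all 10 genes. The other genes of this section are listed because they passed the same threshold. DWF4 and FLU, named above, did not pass it (adjusted p = 0.752 and 0.297). Values are the log2 light response of flu toc33 minus that of flu. Among the 10 the interaction was -2.38 for ATAF1, -1.68 for ATAF2, -2.10 for NAC032, -2.66 for NAC102, -1.34 for NAC019, -3.12 for NAC055, -2.71 for NAC072, 0.52 for NAC013, -0.41 for NAC017 and -1.05 for NAC042. Those of NAC055 and NAC072 hold a fall in flu toc33, while those of the ATAF subgroup hold a smaller rise.

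Among other NAC genes it was -2.17 for NAC062, -1.64 for NAC091, -0.76 for NAC069, -0.49 for NAC053, 1.02 for NAC083, -2.10 for NAC029, -1.62 for NAC092, -1.44 for NAC036, 0.71 for NAC1 and 0.85 for CUC3. Among mitochondrial dysfunction genes it was 3.32 for UGT74E2, 1.33 for AOX1A, 2.07 for AT2G21640 and 1.69 for AT2G04050. Among upstream genes it was -0.97 for ABF3, -1.36 for ABI5 and -0.68 for ABF2; the fitted value of -1.87 for MYC2, which was at or near 0 in the dark, depends on the pseudocount.

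Among genes reported as regulated by the NAC factors the interaction was -2.21 for RD29A, -2.45 for RD20, -3.02 for NCED3, -2.15 for RD29B, -2.23 for DREB2A and 1.42 for GA3OX1. Among abscisic acid signalling genes it was -1.32 for ABI1, -2.14 for PP2CA, -1.98 for HAI1 and -1.23 for ABI2.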

How the results depend on the processing

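Under the added 2-fold rule the number of the 10 genes called was 3 in place of 10 for light in flu toc33 and 1 in place of 8 for the genotypes in the dark; with that rule and a pseudocount of 0.1 or 5 TPM, also added, it was 4 or 3 and 2 or 0, and with 5 TPM 6 in place of 10 for the interaction. Leaving out 1 library at a time, 11225 to 12824 loci were called for light in flu, 13220 to 13355 for light in flu toc33, 6908 to 8755 for the genotypes in the dark, 12248 to 12473 for the genotypes in the light and 10457 to 12229 for the interaction; of the 10 genes, 8 to 9, 9 to 10, 7 to 9, 10 and 10 were called. Of 800 values of the 10 genes under the other alternatives, 783 kept their side of the threshold, 14 lost a call and 3 gained one. No value called in the main fit or in the alternative reversed, and sign changes of values called in neither were not counted. NAC055 for light in flu, never called, ran from -0.058 to 0.103. Of 2460 values of the genes taken from each list by smallest interaction p, 49 lost a call, 15 gained one and none reversed by the same rule. With the filter at 5 TPM, which leaves fewer genes to test, 25 in place of 38 other NAC family loci were called for light in flu and 27 in place of 42 for light in flu toc33. With that filter 7 in place of 11 senescence and stress NAC genes were called for light in flu, and 1 in place of 2 developmental NAC genes for the interaction. The lost calls of the 10 genes were those of NAC019 and NAC102 for light in flu toc33 and of NAC013 in the dark, and the gained ones those of NAC017; the cause was not tested. Replicate numbers did not pair the samples: over 12 pairs the deviations of same-numbered libraries correlated at -0.0848 to 0.0235. With the replicate block 9 of the 10 genes were called for light in flu toc33, NAC019 at adjusted p = 0.0652, and the other 4 counts stayed at 8, 8, 10 and 10. Read depth is unknown, so no counting error can be given for the low values of NAC019, NAC042 and NAC055 in flu toc33 light, whose log2 values move with the pseudocount.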
